A study of Homo sapiens with 48 samples.

Results

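The genes described here act in the WNT pathway of SW480 cells, a human colorectal adenocarcinoma line with mutant APC. They were chosen by symbol from a list of 10: AXIN2, LGR5, ASCL2, NKD1, RNF43, ZNRF3, TCF7, LEF1, CTNNB1 and TCF7L2. Of these, 9 were found among the 11145 genes measured in ribosome-protected fragments (RPFs) and the same 9 among the 11947 genes measured in total cytoplasmic RNA. LGR5 was left out by that rule and is not analysed here. The 9 genes were followed in 24 lysates, each giving 1 RPF library and 1 total RNA library, 48 libraries in all.

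The lines carried doxycycline (DOX)-inducible shRNAs: a control shRNA (shCTRL), one against EIF2B1 (shEIF2B1) and one against EIF2B4 (shEIF2B4), which encode eIF2Bα and eIF2Bδ, subunits of the factor that recharges the initiator eIF2 with GTP. Each line is a pool of lentivirus-transduced, drug-selected SW480 cells, so that all 6 groups share the APC mutation and the vector. Cells of each line received DMSO (-DOX) or 1 µg/ml DOX for 5 days (+DOX), with 4 replicates grown in separate weeks. All values are the deposited regularized log2 values, and translation efficiency (TE), also on the log2 scale, is the RPF value of a lysate less its total RNA value. The p-values rest on how differences between groups varied from week to week, with the level of each week taken out. Each line is 1 pool, so they do not cover the spread between pools of the same shRNA. In bulk lysates fewer cells with an mRNA and less of it per cell cannot be told apart.

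In the absence of WNT ligand, a destruction complex built on AXIN and APC marks β-catenin, the product of CTNNB1, for degradation. Without a working APC, β-catenin accumulates and joins the TCF/LEF factors on DNA, where it drives a set of target genes. Several of these targets, AXIN2, NKD1, RNF43 and ZNRF3, encode brakes on the pathway itself, while ASCL2 and LGR5 are known from the stem cells of the intestinal crypt.

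The assay reads ribosomes on coding sequences, so the start of the coding sequence is shown for the 6 genes in which a response passed the test in RPFs, total RNA or TE. The sequences come from GENCODE release 29 transcripts (GRCh38) of the transcript that the authors assigned to each gene. Each run is read 5′ to 3′ on the gene's strand, with the start codon in capitals.
AXIN2: ctccctcaccATGagtagcgctatgttggt
NKD1: cagccccagcATGgggaaacttcactccaa
RNF43: agctggtagcATGagtggtggccaccagct
ZNRF3: ccgcaggaccATGaggccgcgctcgggcgg
ASCL2: tgcaggcgcgATGgacggcggcacactgcc
CTNNB1: agcgtggacaATGgctactcaagctgattt
These windows lie at chr17:65558601-65558630 on the minus strand for AXIN2, chr16:50548544-50548573 on the plus strand for NKD1 and chr17:58415558-58415587 on the minus strand for RNF43. They lie at chr22:28883757-28883786 on the plus strand for ZNRF3 and chr11:2270313-2270342 on the minus strand for ASCL2. The CTNNB1 window is joined from 2 exons of its transcript, which spans chr3:41199229-41240453 on the plus strand. All 9 genes had A or G 3 bases before the start codon, as did 85.14% of annotated transcripts with at least 3 bases before it. ASCL2, NKD1 and CTNNB1 had G just after the start codon, as did 53.2% of 11531 annotated transcripts.

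The transcripts differed more in what surrounds the start codon. RNF43, TCF7 and LEF1 have the transcript version that the authors used. The version differs for the other 6, whose leaders, upstream ATGs, lengths and GC content in release 29 may not be those of the authors' transcripts. RNF43 had a leader of 1956 bases, longer than in 99.88% of transcripts, with 38 ATGs upstream of its coding sequence. ASCL2 had a leader of 620 bases with 4 upstream ATGs, ZNRF3 had 3, and AXIN2 and NKD1 had 2 each. TCF7, LEF1, CTNNB1 and TCF7L2 had none, and 49.03% of all transcripts had at least 1. The GC content of the coding sequence was 75.1% in ASCL2 (99.7th percentile of genes), 65.7% in ZNRF3, 63.6% in NKD1, 60.5% in RNF43 and 58.5% in AXIN2, against 48.0% in CTNNB1 and a median over genes of 51.9%.

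In uninduced shCTRL cells, levels were compared between genes only per length. In RPFs per kilobase of coding sequence, CTNNB1 stood highest, at a log2 level of 10.56 ± 0.227 (SD, n = 4). NKD1 (8.78 ± 0.237), ASCL2 (8.73 ± 0.498) and AXIN2 (8.29 ± 0.0892) followed, and RNF43 (5.75 ± 0.264) and TCF7L2 (5.61 ± 0.198) were lowest. CTNNB1 therefore carried the densest footprints of these genes, and its 4 libraries did not overlap with those of any other. In total RNA per kilobase of transcript, LEF1 (9.20 ± 0.152), CTNNB1 (9.18 ± 0.170) and AXIN2 (8.99 ± 0.0269) were highest. The range of CTNNB1 overlapped with those of LEF1 and AXIN2, and TCF7L2 was again lowest (5.57 ± 0.252).

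Of 8 colorectal epithelial markers, 6 were measured, ranked here by mean level over all 24 libraries of a table without correction for length. KRT8, KRT18, KRT19 and EPCAM were above the 82nd percentile of their table, whereas CDH1 was low (17.6th percentile in RPFs and 6.32th in total RNA). CDX2, the intestinal transcription factor, was near the middle (52.8th and 41.0th). KRT20 and VIL1 were not among the genes analysed. None of the 8 leukocyte, fibroblast and endothelial markers was among the genes analysed. The targeted genes were checked first. EIF2B1 fell in response to its shRNA, by 0.53 in RPFs (SE 0.13, limma adjusted p = 0.0109) and by 0.67 in total RNA (SE 0.15, adjusted p = 0.0263). EIF2B4 fell by 0.49 in total RNA in response to its own (SE 0.14, adjusted p = 0.0634), while its RPF response of -0.48 did not pass the test (adjusted p = 0.236). Before DOX was added, EIF2B1 was already 0.45 below shCTRL in RPFs of the shEIF2B1 line (adjusted p = 0.000194). EIF2B4 was then 0.42 below shCTRL in RPFs of the shEIF2B4 line (adjusted p = 0.0824), where the median gene differed by -0.128.

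Responses to a knockdown are changes from -DOX to +DOX from which the change in shCTRL was subtracted. They were tested by limma on all genes with the week as a block, two-sided, with a call at an adjusted p (Benjamini-Hochberg) under 0.1. Both knockdowns were set against the same shCTRL libraries. The response moved with base composition. Across 10811 genes the RPF response to shEIF2B1 had a Pearson correlation of 0.634 with the GC content of the coding sequence, a slope of 0.265 per 10 GC points, and the TE responses had 0.661 for shEIF2B1 and 0.74 for shEIF2B4 across 10512 genes. In total RNA these correlations were 0.174 and -0.238 across 11555 genes. Between uninduced lines, whose libraries also enter the responses, the RPF difference from shCTRL had correlations of -0.81 for the shEIF2B1 line and -0.766 for the shEIF2B4 line. Genes are not independent replicates, so these correlations describe the tables. The fit was therefore repeated after a smooth trend with GC content was removed from each library, an alternative chosen after the data were seen, and its values stand beside the results that it changed.

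**Figure D1:**
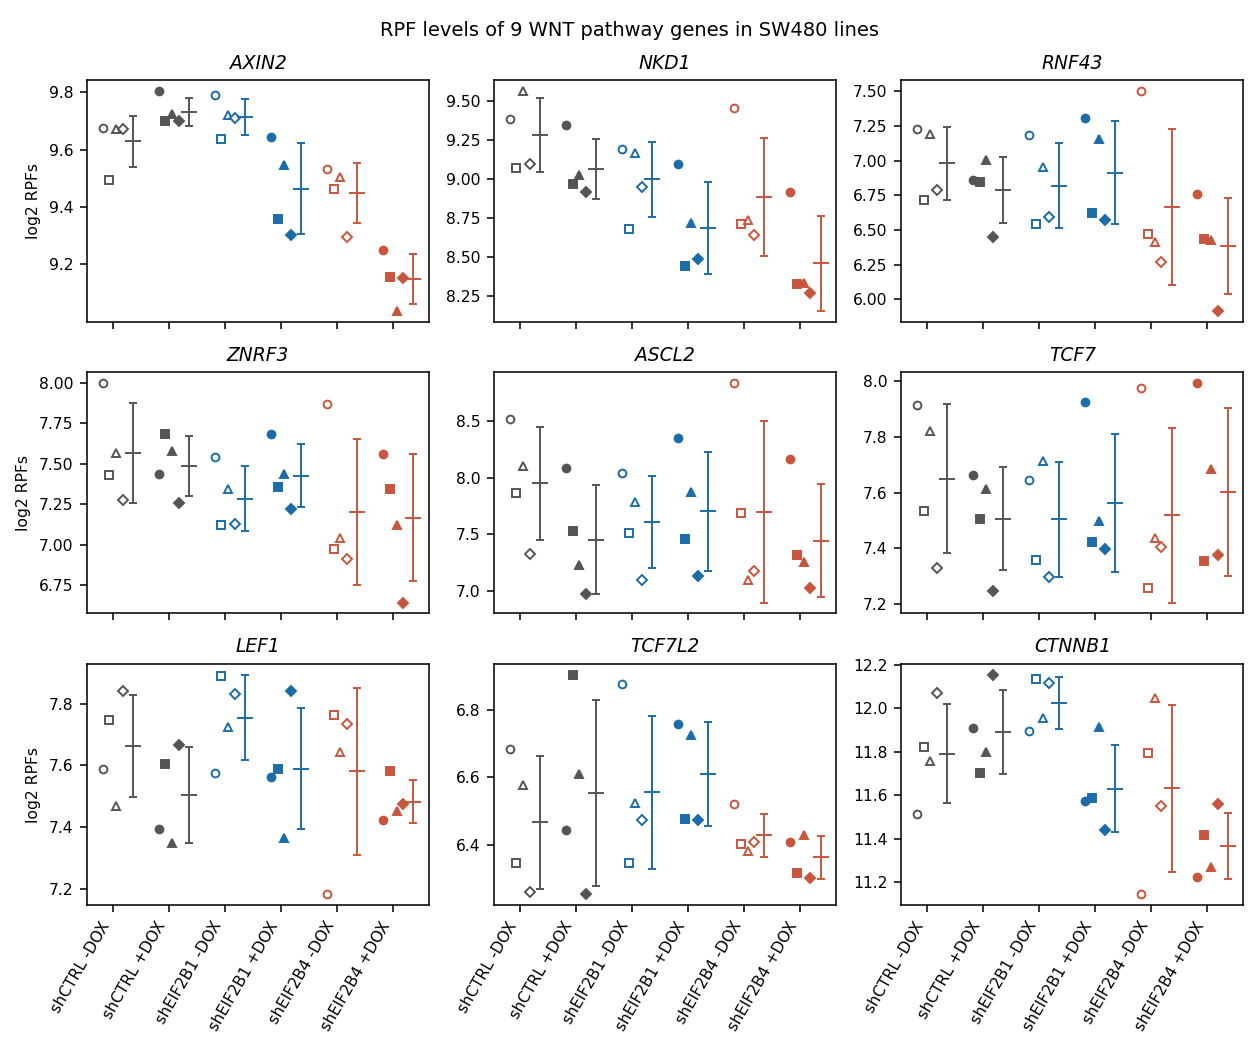
Log2 RPF levels of the 9 genes in the 6 groups, 1 panel per gene and 1 point per library (open, -DOX; filled, +DOX), with the marker shape giving the week and bars the mean ± SD over 4 libraries. AXIN2 was lowest in the shEIF2B4 line on DOX, at 9.04 to 9.25, below every other group.

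AXIN2 is a scaffold of the destruction complex and a common readout of β-catenin activity. It was lower on DOX in both knockdown lines in every week, in RPFs and in total RNA. The response passed the test in RPFs for shEIF2B1 and in total RNA for shEIF2B4. In the weeks 1 to 4, its log2 RPFs were 9.68, 9.50, 9.67 and 9.67 in shCTRL -DOX and 9.80, 9.70, 9.72 and 9.70 in shCTRL +DOX. In the shEIF2B1 line they were 9.79, 9.64, 9.72 and 9.71 -DOX and 9.64, 9.36, 9.55 and 9.30 +DOX. In the shEIF2B4 line they were 9.53, 9.46, 9.50 and 9.30 -DOX and 9.25, 9.16, 9.04 and 9.15 +DOX. The shCTRL cells were therefore a little higher on DOX in each week, while both knockdown lines were lower in each week, and in the shEIF2B4 line the -DOX and +DOX libraries did not overlap. The RPF response to shEIF2B1 was a fall of 0.35 (SE 0.11, 95% interval -0.59 to -0.12, limma adjusted p = 0.0334), seen in 4 of 4 weeks. The RPF response to shEIF2B4 was of similar size, -0.40 (SE 0.13), also in 4 of 4 weeks, but it did not pass the test (adjusted p = 0.139). With the GC trend removed the 2 RPF responses were -0.51 (adjusted p = 0.00658) and -0.52 (adjusted p = 0.0406), and both passed. The fall in RPFs after shEIF2B1 lost its call without week 2 (adjusted p = 0.109), without week 4 (0.156) and with no replicate block (0.621).

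In total RNA, AXIN2 in shCTRL had overlapping ranges, at 11.08, 11.04, 11.08 and 11.10 -DOX and 11.08, 11.18, 11.10 and 11.15 +DOX. In the shEIF2B1 line it went from 11.19, 10.97, 11.06 and 11.08 to 10.90, 10.95, 10.82 and 10.92. In the shEIF2B4 line it went from 11.05, 11.05, 11.19 and 10.99 to 10.70, 10.72, 10.62 and 10.71. The +DOX libraries lay below the -DOX libraries of their own line in both knockdowns, and those of the shEIF2B4 line lay below all other 20 libraries. AXIN2 mRNA fell by 0.43 in response to shEIF2B4 (SE 0.09, adjusted p = 0.0107, to 0.741 of its level), and the response to shEIF2B1 was -0.23 (SE 0.10, adjusted p = 0.275), below 0 in 4 of 4 weeks. Of the 4 weeks, only week 2 ended the call when it was left out (adjusted p = 0.105). The TE of AXIN2 showed no called response, at -0.13 (95% interval -0.43 to 0.18) and 0.03 (-0.27 to 0.33).

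**Figure D2:**
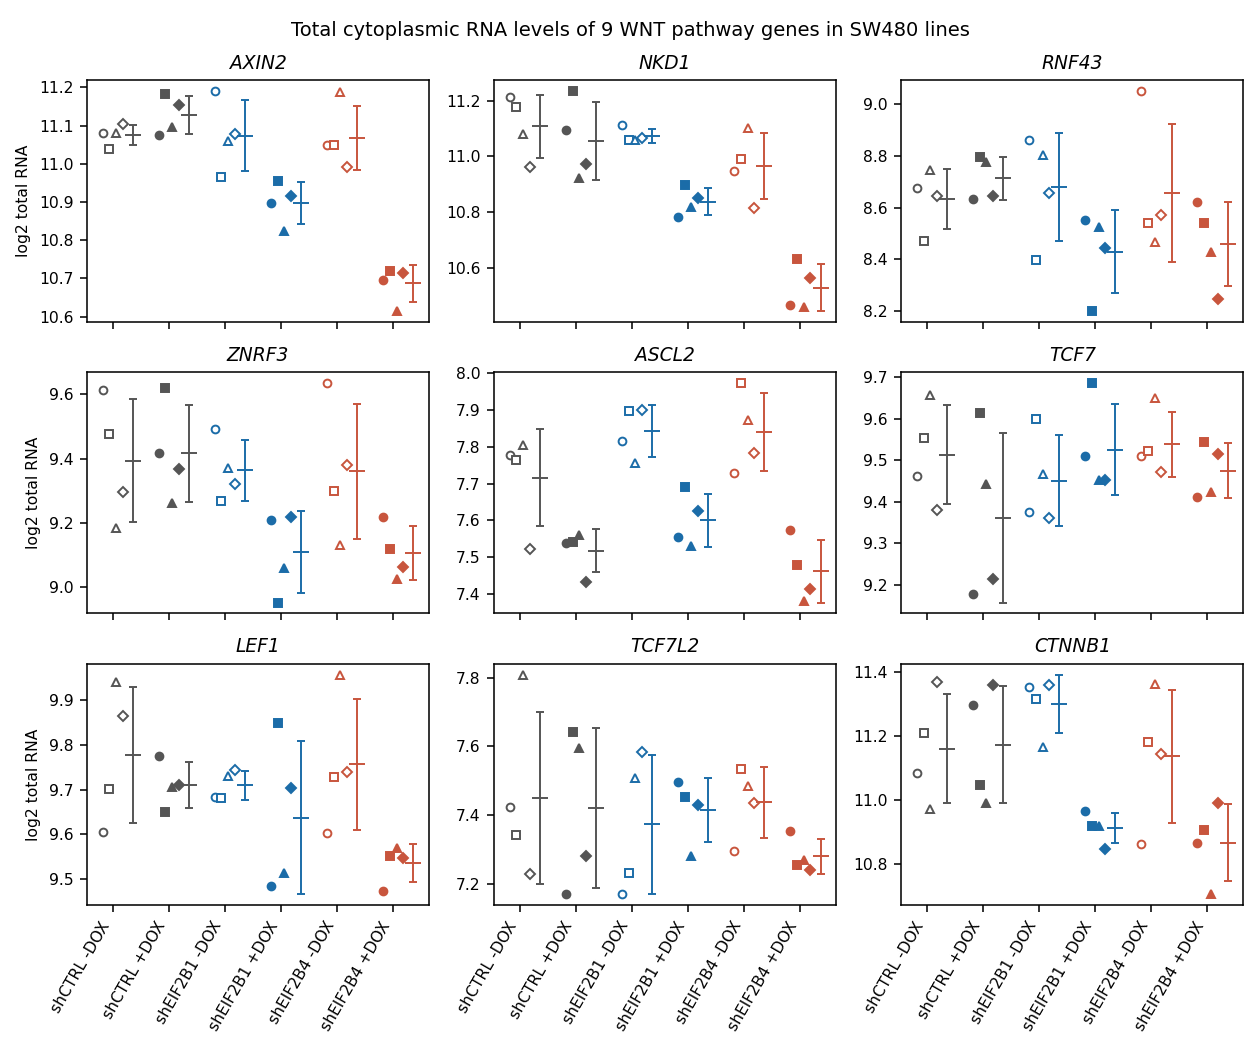
Log2 total cytoplasmic RNA levels of the 9 genes in the 6 groups, 1 panel per gene and 1 point per library (open, -DOX; filled, +DOX), with the marker shape giving the week and bars the mean ± SD over 4 libraries. AXIN2 and NKD1 in the shEIF2B4 line on DOX lie below all other libraries, at 10.62 to 10.72 and 10.46 to 10.63.

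NKD1, which binds Dishevelled and dampens the signal from the receptor, followed AXIN2 in total RNA. Its log2 total RNA was 11.21, 11.18, 11.08 and 10.96 in shCTRL -DOX and 11.09, 11.23, 10.92 and 10.97 in shCTRL +DOX. In the shEIF2B1 line it was 11.11, 11.06, 11.06 and 11.07 -DOX and 10.78, 10.90, 10.82 and 10.85 +DOX. In the shEIF2B4 line it was 10.95, 10.99, 11.10 and 10.82 -DOX and 10.46, 10.63, 10.46 and 10.56 +DOX. Both knockdown lines had lower NKD1 mRNA on DOX in every week with no overlap, and shCTRL overlapped. The fall in response to shEIF2B4 was 0.38 (SE 0.11, adjusted p = 0.0572). The response to shEIF2B1 was -0.18 (SE 0.10, adjusted p = 0.425), with all 4 weeks below 0. The fall after shEIF2B4 did not pass with any 1 of the 4 weeks left out (adjusted p from 0.111 to 0.228) or with no replicate block (0.135). In RPFs the responses were -0.10 (SE 0.13, adjusted p = 0.646) and -0.21 (SE 0.17, adjusted p = 0.564), and NKD1 RPFs in shCTRL also differed by -0.22 on DOX, lower in 4 of 4 weeks (adjusted p = 0.210). The RPF response of NKD1 to shEIF2B1 was a fall of 0.36 (adjusted p = 0.0856) once the GC trend was removed.

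RNF43 and ZNRF3 are transmembrane ubiquitin ligases that remove Frizzled receptors from the cell surface, and both showed the same arrangement of values after shEIF2B1: mRNA responses below 0, RPFs that did not go down with it, and so a higher TE. RNF43 total RNA in the shEIF2B1 line was 8.86, 8.40, 8.81 and 8.66 -DOX and 8.55, 8.20, 8.53 and 8.44 +DOX, lower in every week though the groups overlap. Its RPFs were 7.19, 6.54, 6.96 and 6.59 -DOX and 7.31, 6.62, 7.15 and 6.57 +DOX. In shCTRL its total RNA had means of 8.63 ± 0.117 -DOX and 8.71 ± 0.084 +DOX, and its RPFs 6.98 ± 0.264 and 6.79 ± 0.236 (SD, n = 4). Neither the mRNA response of RNF43 (-0.33, SE 0.12, adjusted p = 0.187) nor its RPF response (0.28, SE 0.15, adjusted p = 0.185) passed the test. Their difference did.

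The log2 TE of RNF43 was -1.68, -1.85, -1.85 and -2.06 in shEIF2B1 -DOX and -1.25, -1.58, -1.37 and -1.87 in shEIF2B1 +DOX, higher in each week. In shCTRL it was -1.45, -1.76, -1.56 and -1.86 -DOX and -1.77, -1.95, -1.78 and -2.19 +DOX, lower in each week. The TE response to shEIF2B1 was a rise of 0.61 (SE 0.14, adjusted p = 0.0366), or 1.53-fold, made up of opposite changes in the 2 lines. The log2 TE of ZNRF3 was -1.95, -2.15, -2.03 and -2.19 in shEIF2B1 -DOX and -1.52, -1.59, -1.62 and -2.00 in shEIF2B1 +DOX. In shCTRL it was -1.62, -2.05, -1.62 and -2.02 -DOX and -1.98, -1.94, -1.69 and -2.11 +DOX. Its TE rose by 0.50 (SE 0.16, adjusted p = 0.0847), again in 4 of 4 weeks.

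After shEIF2B4 the TE responses of RNF43 (0.19, SE 0.15, adjusted p = 0.507) and ZNRF3 (0.32, SE 0.18, adjusted p = 0.347) did not pass, although each was above 0 in 4 of 4 weeks. The mRNA responses of both genes to both knockdowns were below 0 in 4 of 4 weeks, at -0.33 and -0.28 for RNF43 and -0.28 and -0.28 for ZNRF3 (adjusted p from 0.187 to 0.330). The TE responses to shEIF2B1 after removal of the GC trend were 0.45 for RNF43 (adjusted p = 0.219) and 0.25 for ZNRF3 (adjusted p = 0.599), and neither passed.

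ASCL2, a transcription factor of intestinal stem cells, had the most GC-rich coding sequence of the 9. Of the 4 genes with an RPF response to shEIF2B1 above 0, it was the 1 called. In the weeks 1 to 4 its log2 RPFs in shCTRL were 8.52, 7.86, 8.10 and 7.32 -DOX and 8.09, 7.53, 7.23 and 6.97 +DOX. In the shEIF2B1 line they were 8.04, 7.51, 7.79 and 7.10 -DOX and 8.35, 7.46, 7.87 and 7.13 +DOX. In the shEIF2B4 line they were 8.83, 7.69, 7.10 and 7.18 -DOX and 8.17, 7.32, 7.25 and 7.03 +DOX. The weeks spread widely, week 1 being highest in every group, and all pairs of groups overlap. Within weeks, shCTRL was lower on DOX in 4 of 4, by 0.33 to 0.88, and this fall of 0.50 passed the test on its own (SE 0.11, adjusted p = 0.0425).

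The RPF response of ASCL2 to shEIF2B1 was a rise of 0.59 (SE 0.15, adjusted p = 0.0115), or 1.50-fold, in 4 of 4 weeks. It came with the fall in shCTRL: the uncorrected change in the shEIF2B1 line was 0.09 (adjusted p = 0.517). The rise was called with any 1 week left out (adjusted p from 0.00955 to 0.0726), and it was 0.17 (adjusted p = 0.502) with the GC trend removed and had an adjusted p of 0.634 with no replicate block. The fall of ASCL2 in shCTRL lost its call without week 2 (adjusted p = 0.143), week 3 (0.426) or week 4 (0.215) and with no replicate block (0.691).

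ASCL2 mRNA did not follow its RPFs in the response to shEIF2B1. Log2 total RNA was 7.78, 7.76, 7.80 and 7.52 in shCTRL -DOX and 7.54, 7.54, 7.56 and 7.43 in shCTRL +DOX. It was 7.82, 7.90, 7.76 and 7.90 in shEIF2B1 -DOX and 7.56, 7.69, 7.53 and 7.62 in shEIF2B1 +DOX. It was 7.73, 7.97, 7.87 and 7.78 in shEIF2B4 -DOX and 7.57, 7.48, 7.38 and 7.41 in shEIF2B4 +DOX. All 3 lines had lower ASCL2 mRNA on DOX in each week, and the corrected responses were -0.04 (SE 0.11, adjusted p = 0.898) and -0.18 (SE 0.10, adjusted p = 0.385). The TE of ASCL2 rose by 0.63 in response to shEIF2B1 (SE 0.17, adjusted p = 0.0485). After shEIF2B4 it was 0.42 with a wide error (SE 0.22, adjusted p = 0.315). The rise after shEIF2B1 was 0.29 (adjusted p = 0.501) with the GC trend removed.

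**Figure D3:**
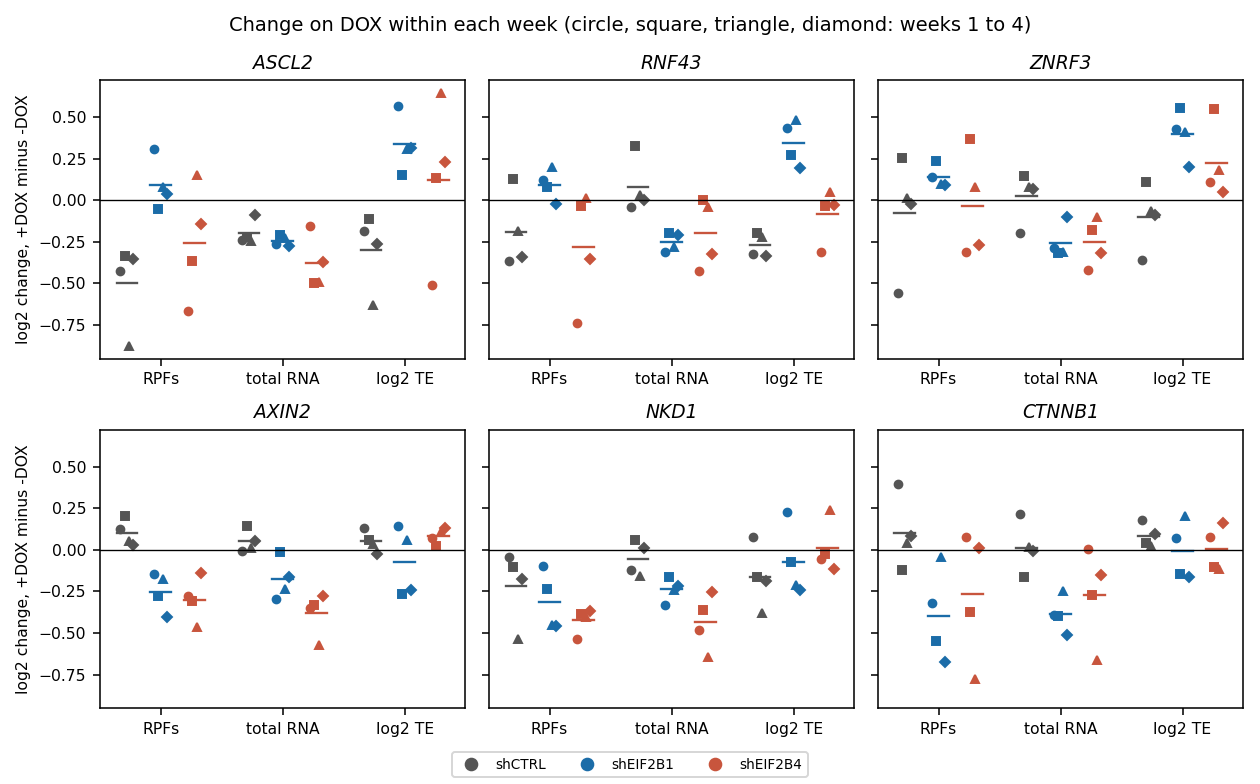
Change from -DOX to +DOX (log2) of the 6 genes with a called response, with 1 point per line and week for RPFs, total RNA and TE, the marker shape giving the week, and bars for the means over 4 weeks. For AXIN2 the shEIF2B1 and shEIF2B4 points are below 0 in all weeks in RPFs and total RNA, and for RNF43 TE the shCTRL points are below 0 and the shEIF2B1 points above 0 in all weeks.

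The TE calls of RNF43, ZNRF3 and ASCL2 were kept without week 2 and lost without any other week. Without week 1, 3 or 4 the adjusted p was 0.228, 0.146 and 0.163 for RNF43, 0.379, 0.233 and 0.242 for ZNRF3, and 0.248, 0.159 and 0.189 for ASCL2. With no replicate block it was 0.906 for each.

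The DNA-binding partners of β-catenin showed no called response. TCF7 had RPF responses of 0.20 (SE 0.13, adjusted p = 0.296) to shEIF2B1 and 0.23 (SE 0.15, adjusted p = 0.489) to shEIF2B4, and mRNA responses of 0.23 (adjusted p = 0.311) and 0.09 (adjusted p = 0.730). LEF1 had RPF responses of -0.01 (95% interval -0.26 to 0.25) and 0.06 (-0.26 to 0.38). Its log2 total RNA was lowest in shEIF2B4 +DOX, at 9.54 ± 0.042 against 9.76 ± 0.146 in shEIF2B4 -DOX (SD, n = 4), with a response of -0.15 (SE 0.10, adjusted p = 0.470). TCF7L2, the main TCF factor of colon epithelium, had RPF responses of -0.03 (95% interval -0.40 to 0.33) and -0.15 (-0.52 to 0.21). For shEIF2B1 the interval of TCF7L2 reaches the -0.35 called for AXIN2 in RPFs, and that of LEF1 does not.

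CTNNB1, which encodes β-catenin, was lower after shEIF2B1 at both levels. Its log2 total RNA was 11.09, 11.21, 10.97 and 11.37 in shCTRL -DOX and 11.30, 11.05, 10.99 and 11.36 in shCTRL +DOX. In the shEIF2B1 line it went from 11.35, 11.32, 11.17 and 11.36 to 10.96, 10.92, 10.92 and 10.85. In the shEIF2B4 line it went from 10.86, 11.18, 11.36 and 11.14 to 10.87, 10.91, 10.70 and 10.99. The shEIF2B1 line fell with no overlap, whereas in the shEIF2B4 line week 1 was level and the groups overlap. CTNNB1 mRNA fell by 0.40 in response to shEIF2B1 (SE 0.12, adjusted p = 0.0910). The response to shEIF2B4 was -0.28 (SE 0.14, adjusted p = 0.314). The fall lost its call without week 1 (adjusted p = 0.523), week 3 (0.148) or week 4 (0.379) and with no replicate block (0.208).

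In RPFs, CTNNB1 was 11.52, 11.82, 11.76 and 12.07 in shCTRL -DOX and 11.91, 11.70, 11.80 and 12.15 in shCTRL +DOX. The shEIF2B1 line went from 11.89, 12.13, 11.96 and 12.12 to 11.57, 11.59, 11.91 and 11.44, and the shEIF2B4 line from 11.14, 11.79, 12.04 and 11.55 to 11.22, 11.42, 11.27 and 11.56. The shEIF2B1 line was lower on DOX in 4 of 4 weeks, by little in week 3, and the shEIF2B4 line in 2 of 4. The RPF response to shEIF2B1 was a fall of 0.50 (SE 0.17, adjusted p = 0.0435) and that to shEIF2B4 was -0.36 (SE 0.20, adjusted p = 0.383). The fall lost its call without week 1 (-0.42, adjusted p = 0.180), without week 4 (-0.41, 0.164), with no replicate block (0.621) and with the GC trend removed (-0.36, 0.214). The TE of CTNNB1 had responses of -0.09 (95% interval -0.37 to 0.19) and -0.08 (-0.37 to 0.21).

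**Figure D4:**
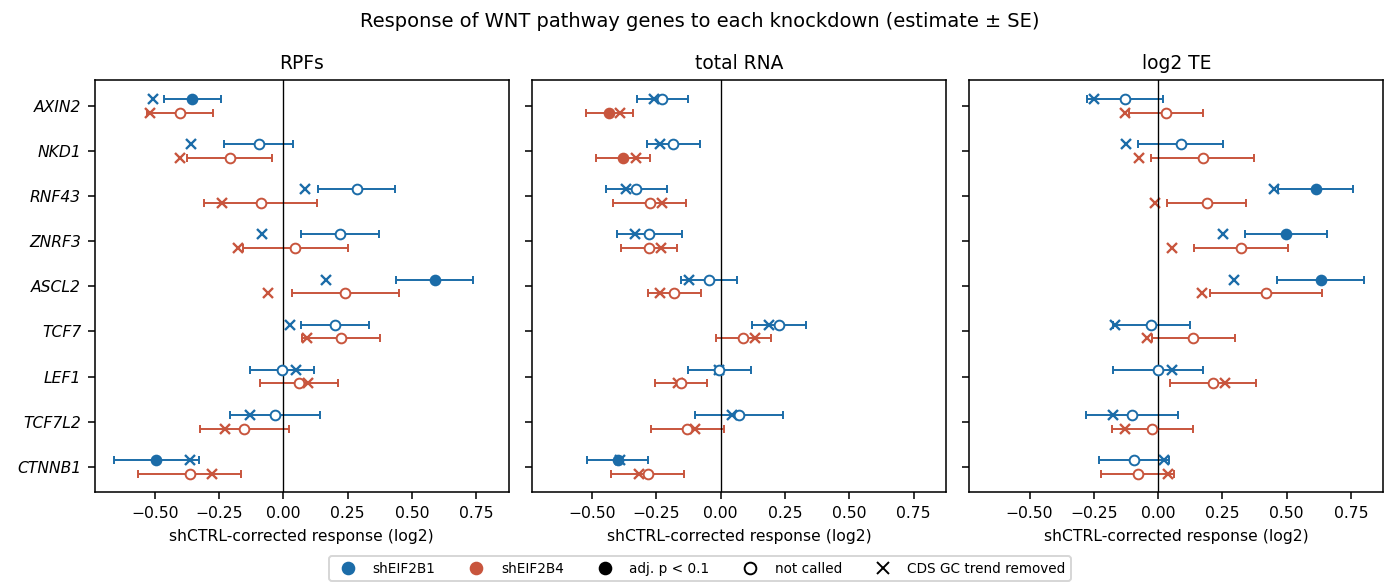
Responses of the 9 genes to shEIF2B1 and shEIF2B4 corrected for shCTRL (log2, estimate ± SE) in RPFs, total RNA and TE, where filled points passed an adjusted p under 0.1 and crosses give the estimate with the GC trend removed. In total RNA 7 of 9 estimates are below 0 for shEIF2B1 and 8 of 9 for shEIF2B4, and in TE the crosses of RNF43, ZNRF3 and ASCL2 lie nearer to 0 than the points.

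Counted over the 9 genes, the RPF response to shEIF2B1 was called in 3 (1 higher, 2 lower), against 27.3% of all genes tested, and 7.97% with the GC trend removed, when 2 of the 9 were called (AXIN2 and NKD1, both lower). The RPF response to shEIF2B4 was called in 0 by limma, against 2.75% of all genes, with 1 of 9 at an unadjusted p under 0.05, against 15.7%, and in 1 (AXIN2) with the GC trend removed, against 1.94%. In total RNA, 1 of 9 was called for shEIF2B1 (3.47% of all genes) and 2 of 9 for shEIF2B4 (5.4% of all genes). At an unadjusted p under 0.05 these were 5 of 9 (15.3% of all genes) and 3 of 9 (17.2%). The median total RNA response of the 9 was -0.18 and -0.28, against medians over all genes of -0.004 and 0.002. With the GC trend removed CTNNB1 was again called for shEIF2B1 (5.55% of all genes), and AXIN2 and NKD1 for shEIF2B4 (5.62%). In TE, 3 of 9 were called for shEIF2B1 against 7.1% of genes, and 0 of 9 with the GC trend removed against 0.323%. In TE for shEIF2B4, limma called 0 of 9, against 0.0923% of genes, with 0 at an unadjusted p under 0.05, against 17.1%.

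The difference between the responses to the knockdowns was tested directly over the 24 libraries of each table, and limma called none of the 9 genes. Over all genes it was called in 0.00897% in RPFs, 0.1% in total RNA and 0% in TE. At an unadjusted p under 0.05 there were 0 of 9 in RPFs (6.4% of all genes), 1 in total RNA (12.8%) and 1 in TE (6.14%). The latter were AXIN2 in total RNA, whose response was 0.21 higher for shEIF2B1 than for shEIF2B4 (95% interval 0.02 to 0.39, adjusted p = 0.355), and RNF43 in TE, whose response was 0.42 higher (0.13 to 0.72, adjusted p = 0.789). For ASCL2 the RPF difference had an interval of -0.09 to 0.78, and for CTNNB1 one of -0.53 to 0.26, and both intervals hold differences as large as the responses themselves.

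On induction of shCTRL itself, the RPF fall of ASCL2 was the 1 call among the 9 (9.85% of all genes). Limma called 0 of 9 in total RNA, against 4.44% of all genes, and 0 of 9 in TE, against 0.388%. At an unadjusted p under 0.05 there were 1 in total RNA (20.1% of all genes) and 2 in TE (15%). Before induction the lines already differed in RPFs. Relative to shCTRL -DOX, the shEIF2B1 line had less ASCL2 (-0.34, SE 0.08, adjusted p = 0.00285), NKD1 (-0.28, SE 0.08, adjusted p = 0.00617) and ZNRF3 (-0.28, SE 0.09, adjusted p = 0.0140), and more CTNNB1 (0.23, SE 0.08, adjusted p = 0.0194). These 4 of 9 stand against 54.1% of all genes called. Removing the GC trend left none of the 4 called, and AXIN2 was, at 0.25 (adjusted p = 0.0327), against 13.5% of genes. These -DOX libraries also enter the responses. In the uninduced shEIF2B4 line ZNRF3 was lower than in shCTRL (-0.37, SE 0.12, adjusted p = 0.0951), 1 of 9 against 13.9% of genes. The median gene shifted by -0.128, less than ZNRF3. Limma called 0 of 9 between the uninduced lines in total RNA, against 1.4% of all genes for shEIF2B1 and 2.32% for shEIF2B4, with 1 in each line at an unadjusted p under 0.05, against 13.1% and 15.8%.

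Across the 24 libraries of a table, with the mean of each week removed, AXIN2 and NKD1 varied together in total RNA (Pearson r = 0.93), RNF43 and ZNRF3 in RPFs (0.82) and total RNA (0.80), and AXIN2 and CTNNB1 in RPFs (0.83). These correlations, and those below, describe libraries that share lines and treatments, with the GC trend left in. Whether genes ranked close because of similar GC content was not tested. Over all genes of the total RNA table, the 3 closest to AXIN2 were NKD1 (0.928), ENC1 (0.927) and RIN2 (0.924), and the 3 closest to NKD1 were AXIN2, IRAG1 (0.921) and RIN2 (0.919). In RPFs the closest to AXIN2 were ETV3 (0.916), DCAF7 (0.892) and ENC1 (0.890), so that ENC1 was on both AXIN2 lists. The closest to CTNNB1 were MDH1 (0.956), VCP (0.943) and RPA1 (0.942) in RPFs and VCP (0.941), PARP1 (0.936) and MTHFD1 (0.934) in total RNA. The closest to ASCL2 in RPFs were SAPCD2 (0.913), ISOC2 (0.881) and FSD1 (0.871).

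**Figure D5:**
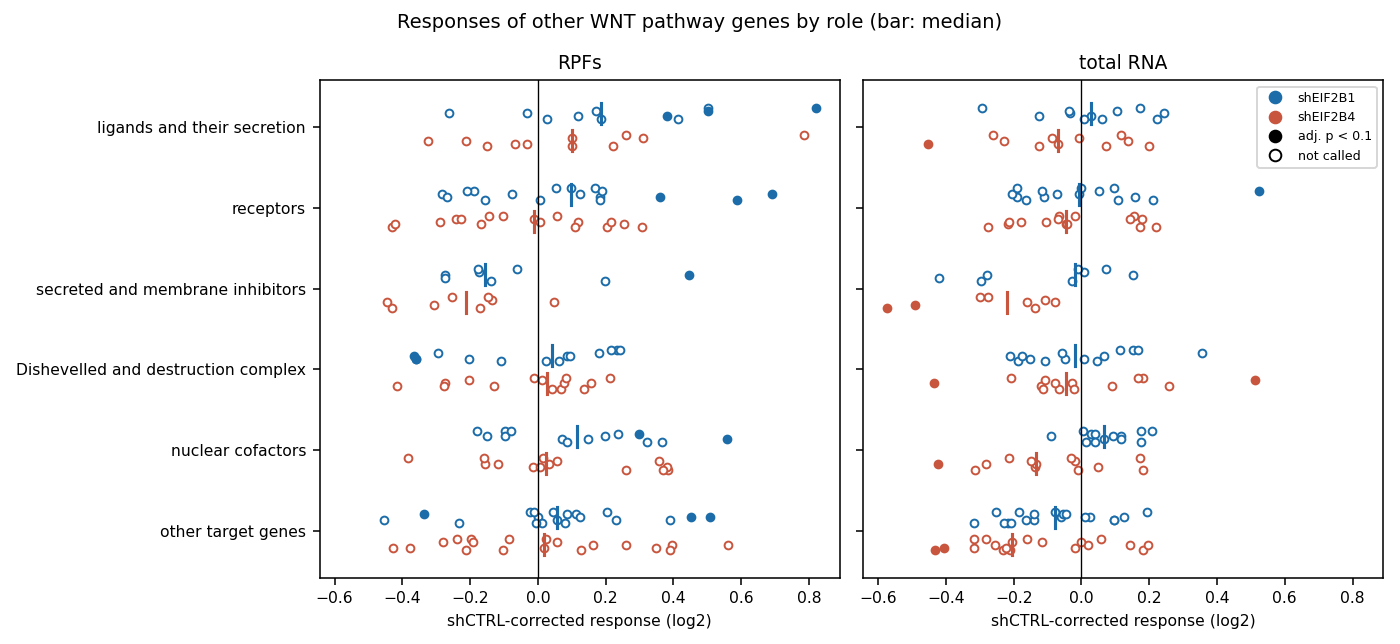
Responses (log2) of the other WNT pathway genes by role in RPFs and total RNA, corrected for shCTRL, with 1 point per gene for each knockdown, bars for the medians and filled points for an adjusted p under 0.1. In total RNA after shEIF2B4, 58 of 80 genes lie below 0.

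Other WNT pathway genes were taken from lists of 111 genes by role, of which 83 were measured in RPFs, 80 in total RNA and 79 in both. The lists were written with earlier results of these data known. In the RPF response to shEIF2B1, 11 rose and 4 fell, so that 18.1% of the 83 were called, against 27.3% of all genes. By role, 12.5% to 27.3% of the measured genes were called. Of 11 ligand and secretion genes 3 rose, the largest being the non-canonical ligand WNT5B (0.82, SE 0.21, adjusted p = 0.0117). WNT5B was weakly covered, at the 8.52th percentile of mean RPF levels, and was not measured in total RNA. Of 17 receptors 3 rose, among them LGR6, a receptor for R-spondins (0.69, SE 0.17, adjusted p = 0.00905), and FZD1, a Frizzled receptor (0.59, SE 0.13, adjusted p = 0.00479). Of 14 Dishevelled and destruction complex genes 3 fell and none rose: APC (-0.37, adjusted p = 0.0939), TNKS2, a tankyrase that marks AXIN for turnover (-0.36, adjusted p = 0.0910), and FBXW11, a subunit of the β-catenin ubiquitin ligase (-0.36, adjusted p = 0.0733). Of 14 nuclear cofactors 2 rose, of 8 inhibitors 1 rose, and of 19 other target genes 2 rose and 1 fell. The median response of the 83 was 0.08, against -0.01 over all genes. It was -0.05 over 80 genes with the GC trend removed, against -0.005 over all genes.

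With the GC trend removed, 2 of 80 rose and none fell (2.5% called, against 7.97% of all genes): LGR6 (0.50, adjusted p = 0.0859) and FZD3 (0.45, adjusted p = 0.0969), a Frizzled receptor named after its value was seen. APC was then at -0.02. APC itself, the gene mutant in these cells, had RPF means between 6.45 and 6.90 in the 6 groups and total RNA means between 9.66 and 9.93. Its RPF response to shEIF2B4 was -0.27 (adjusted p = 0.517), its total RNA responses were -0.18 (adjusted p = 0.498) and -0.03 (adjusted p = 0.923), and its TE responses -0.19 and -0.24 (adjusted p = 0.559 and 0.476).

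For shEIF2B4 limma called 0 of the 83 in RPFs, against 2.75% of all genes, with 16 of 83 at an unadjusted p under 0.05, against 15.7%. Of 80 genes 1, APCDD1, fell once the GC trend was removed (by 0.57, adjusted p = 0.0847), against 1.94% of all genes. The total RNA response to shEIF2B4 held 1 rise and 7 falls among 80 genes, 10% of them against 5.4% of all genes. Of the 80, 58 were below 0, with a median of -0.10, against 49.6% of all genes and a median of 0.002. APCDD1, a membrane inhibitor of WNT signalling and a β-catenin target, fell most (-0.57, SE 0.10, adjusted p = 0.00212), followed by the secreted inhibitor DKK4 (-0.49, SE 0.12, adjusted p = 0.0323) and the ligand WNT6 (-0.45, SE 0.13, adjusted p = 0.0669). All 8 measured inhibitors were below 0 with 2 called, and 14 of 19 other target genes were below 0 with 2 called. CSNK1A1, the casein kinase that primes β-catenin for degradation, rose (0.51, SE 0.11, adjusted p = 0.0132). Removing the GC trend left 1 rise and 5 falls among 77 genes (7.79%, against 5.62% of all genes), with CSNK1A1 as the rise and APCDD1, DKK4 and WNT6 among the falls. The median of the 77 was then -0.06, against -0.01 over all genes, of which 52.9% were below 0. In the total RNA response to shEIF2B1 LGR6 was the 1 gene of 80 called (0.52, SE 0.14, adjusted p = 0.0577), against 3.47% of all genes. Of these 80 genes, 39 were below 0, against 51.1% of all genes. Once the GC trend was removed, 2 rises (LGR6 and CSNK1A1) and 2 falls (APCDD1 and DKK4) were called among 77, or 5.19% against 5.55% of all genes.

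In TE, 3 of 79 genes rose and 1 fell after shEIF2B1, 5.06% of them against 7.1% of all genes. The rises were WNT11 (0.54, adjusted p = 0.0810), SP5, a transcription factor induced by β-catenin (0.49, adjusted p = 0.0625), and PYGO2, a coactivator bound through BCL9 (0.49, adjusted p = 0.0826). CSNK1A1 fell by 0.65 (adjusted p = 0.0640). WNT11 was low in total RNA, at the 9.89th percentile of mean levels. After removal of the GC trend limma called 0 of 76 (0.323% of all genes), with 6 at an unadjusted p under 0.05, 7.89% against 10.7%. In TE after shEIF2B4 limma called 0 of 79 (0.0923% of all genes), with 10 at an unadjusted p under 0.05, 12.7% against 17.1%. On induction of shCTRL, 6 of 83 rose and 4 fell in RPFs (12%, against 9.85% of all genes). SP5 was among these falls and TNKS2 among these rises, so their corrected RPF responses to shEIF2B1 take in a called change of shCTRL. The TE of SP5 uses the same RPFs. Without the GC trend 4 rose and 1 fell of 80 on induction of shCTRL (6.25%, against 6.17%). In total RNA 1 of 80 rose and 1 fell on induction of shCTRL (2.5%, against 4.44%).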

How the data were processed

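RPF and total cytoplasmic RNA libraries from 24 lysates of SW480 cells were used, 4 weekly replicates of 6 groups. No sample was left out. The authors trimmed reads with cutadapt 1.18, removed duplicates, aligned to GENCODE release 38 protein-coding transcripts (Bowtie2, RSEM, SAMtools 1.9) and counted RPFs on the coding sequence of the most expressed transcript. The deposited values are regularized log2 values that the authors made with DESeq2 (R 4.3.1), separately for RPFs (range 2.02 to 16.1) and total RNA (2.80 to 19.9). They shrink the differences of weakly covered genes. The files hold no counts, so depth per library is unknown and no counting precision can be given. Replicate 3 joins 2 sequencing runs of each library. Differences between log2 values are log2 fold changes.

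Log2 TE was computed for 10836 genes. Responses were fitted with limma 3.58.1 in R 4.3.3 (lmFit, then eBayes with a mean-variance trend) on the 16 libraries of a knockdown line and shCTRL, with replicate, shRNA, DOX and their product, the design the study gives for its own fit, where the replicate is the batch. Induction of shCTRL and the uninduced lines were fitted on 8 libraries, and the difference between the responses on 24. P-values were adjusted by Benjamini-Hochberg over all genes of a table. Per-length levels subtract log2 of the length in kilobases. The labels number the replicates and say that the experiment was repeated in separate weeks. The numbers were read as these weeks and used as the block. With the group means removed, 52 of 60 same-numbered pairs had a correlation over 0.1 in RPFs, 37 of 60 in total RNA and 55 of 60 in TE. The script was tested on simulated data.

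The 10 genes and the pathway lists were chosen with earlier results of these data known. All 10 were named where measured. Of the other pathway genes, up to 3 rises and 3 falls by size among those called per knockdown and measure were named, with APC in all groups. For AXIN2 and each gene called in RPFs or total RNA, the 3 genes of highest correlation were named. Lengths, sequences and GC content come from GENCODE release 29 (GRCh38), matched by transcript ID without version for 97% of RPF and 96.72% of total RNA genes; 3 of the 9 genes had the same transcript version. A polynomial of degree 3 in coding GC content was removed from each library's deviations, an alternative added after the data were seen. The other alternatives were no replicate block, no trend, the 25% of genes with the lowest levels left out, libraries centred on their medians, all 24 libraries in 1 fit, no shCTRL correction, weekly changes, an adjusted p under 0.05, and each week left out in turn.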

Additional observations from a re-analysis of the deposited data

Results flagged for a closer look

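Each group of 4 libraries was searched for a library far from its other 3, by Dixon's criterion. Of 108 groups over the 9 genes, RPFs and total RNA, 6 held one (5.56%), and chance gives about 1 in 20. In RPFs of the shEIF2B4 line, week 1 stood high for NKD1 -DOX (9.45, with the other 3 from 8.64 to 8.74), NKD1 +DOX (8.92, others from 8.27 to 8.33), RNF43 -DOX (7.50, others from 6.27 to 6.47) and ZNRF3 -DOX (7.87, others from 6.91 to 7.04). AXIN2 RPFs of week 2 stood low in shCTRL -DOX (9.50, others at 9.67 to 9.68). ASCL2 total RNA of week 4 stood low in shCTRL -DOX (7.52, others from 7.76 to 7.80).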

How the results depend on the processing

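Of 177 alternatives to the 15 called single-gene results, 116 kept the call. The 1 reversal among the alternatives run was ZNRF3 RPFs between uninduced shEIF2B1 and shCTRL, at 0.0096 with the GC trend removed. Counts of the 9 genes called moved as follows. With no replicate block, the count went to 0 in the shEIF2B1 response in RPFs, total RNA and TE, in shCTRL RPFs and in both uninduced lines in RPFs, and to 1 in the shEIF2B4 total RNA response. With all 24 libraries in 1 fit it was 1 in the shEIF2B4 RPF response, 0 in shEIF2B1 total RNA and 1 in shEIF2B1 TE. With no shCTRL correction it was 2 in shEIF2B4 RPFs, 5 in shEIF2B1 total RNA and 6 in shEIF2B4 total RNA. On weekly changes these were 2, 2 and 4. At an adjusted p under 0.05 it was 0 in shEIF2B1 total RNA, 1 in shEIF2B4 total RNA and 0 in uninduced shEIF2B4 RPFs. The latter was also 0 without the lowest 25% of genes, with libraries centred and with the GC trend removed. With the GC trend removed it was 1 in shEIF2B4 RPFs, 0 in shEIF2B1 TE and 1 in uninduced shEIF2B1 RPFs.

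Leaving out 1 week gave 1 to 3 calls in the shEIF2B1 RPF response, 0 to 1 in shEIF2B1 total RNA, 0 to 3 in shEIF2B1 TE, 0 to 1 in the shEIF2B4 response in each of RPFs, total RNA and TE, 0 to 2 in shCTRL RPFs, and 0 to 4 and 0 to 1 in uninduced shEIF2B4 RPFs and total RNA. Depth is unknown, so whether the low genes were limited by it cannot be told.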
